A study of Drosophila melanogaster with 6 samples.

Results

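The genes described here encode the proteins of the mitochondrial ribosome of Drosophila melanogaster. They are the 73 protein-coding genes, of 13946 on the chromosome arms in the RefSeq table, whose symbol begins with mRpL or mRpS and a number. Of these, 47 encode proteins of the large subunit and 26 proteins of the small subunit. The mitochondrial ribosome sits in the mitochondrial matrix and translates the few messages encoded by mitochondrial DNA, which specify core subunits of the respiratory chain. Its small subunit decodes the message and its large subunit forms the peptide bond. All of its proteins are encoded in the nucleus, made in the cytosol and imported, so they do not pass through the endoplasmic reticulum and Golgi, whose genes are the known targets of CrebA, a bZIP transcription factor of secretory tissues.

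CrebA binding was mapped by ChIP-seq in embryos of stages 11 to 16, collected over 8 h at room temperature and aged for 11 h. The Oregon R library came from wild-type embryos precipitated with antiserum to untagged CrebA, and therefore sums over all tissues that express it. The other 2 libraries came from embryos of the genotypes fkh-GAL4::UAS-CrebA-GFP and sage-GAL4::UAS-CrebA-GFP, in which GAL4 adds CrebA fused to GFP and the antibody recognises the GFP. Each driver works in several tissues and the salivary gland is the only one they share, per the series description, so neither driver list is a list of that gland alone. Chromatin was taken from 2 collections and crosslinked in 1.8% formaldehyde, and each group has 1 library with its own input. The labels do not say whether the collections were pooled.

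The data are the authors' peak lists, with 14039 peaks for Oregon R, 6464 for fkh-Gal4 and 7916 for sage-Gal4, on build dm6. Each peak carries the authors' own fold enrichment at its summit, which ranged from 1.25 to 3.98, from 1.33 to 3.51 and from 1.34 to 3.76 in the 3 lists. Folds rank peaks within a list, as a percentile in which 100 is the highest peak; folds of different lists are printed side by side, and their sizes are not compared. A gene is termed bound where a summit falls no more than 1000 bp from either of its ends, because the gene table gives ends without strand. The read depth behind the peaks is unknown, no value has a replicate check, and no test was made, since genes are not replicates. Intervals of shares below are exact Clopper-Pearson intervals at 95%, and all intervals cover counting error over genes only.

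Mitochondrial ribosomal protein genes lay near CrebA peaks more often than protein-coding genes at large, and few of those peaks were among the highest of their list. In the Oregon R list 71 of 73 were bound (97.3%, interval 90.5 to 99.7%), against 62.4% of all protein-coding genes, a ratio of 1.56. In the fkh-Gal4 list 34 were bound (46.6%, 34.8 to 58.6%), against 28.4% of all genes, a ratio of 1.64. In the sage-Gal4 list 49 were bound (67.1%, 55.1 to 77.7%), against 38.9%, a ratio of 1.72. All 3 lists held 30 of the genes (41.1%), against 24.9% of all genes, and every one of the 73 was bound in at least 1 list, against 65.0%. The lists differ in length, which bears on each count. With the 6464 peaks of highest fold taken from each list, the bound genes numbered 51 (69.9%, against 44.8% of all genes), 34 and 42 (57.5%, against 34.2%) in the Oregon R, fkh-Gal4 and sage-Gal4 lists.

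**Figure D1:**
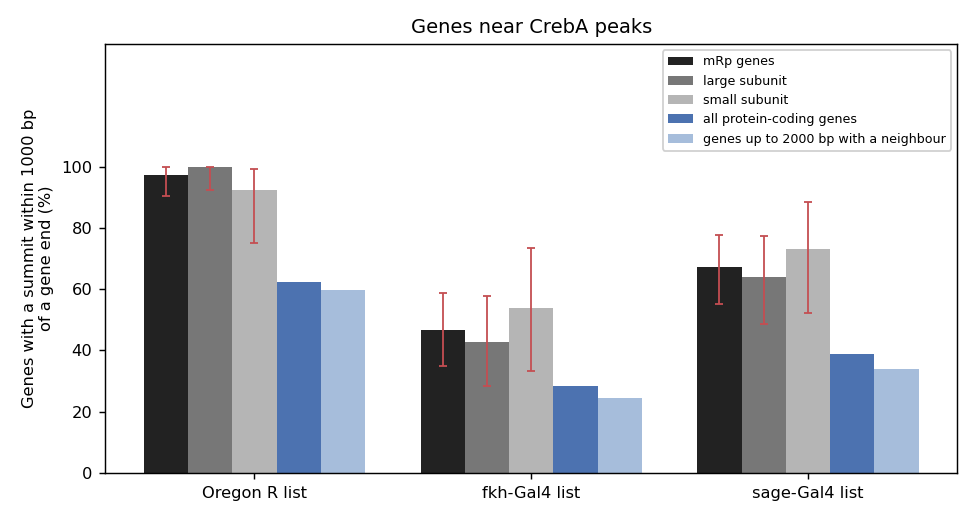
Share of genes bound in each peak list (percent, y axis), for all 73 mitochondrial ribosomal protein (mRp) genes, the 47 large and 26 small subunit genes, all 13946 protein-coding genes, and the 4485 protein-coding genes of up to 2000 bp with a neighbour within 500 bp. Red bars are exact 95% intervals over genes; each list is 1 library. The black bars, at 97.3%, 46.6% and 67.1%, stand above both blue bars in each list.

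The genes are short and closely packed, and this sets how the shares read. Their median length was 909 bp (range 390 to 13391 bp), against 2161 bp for all protein-coding genes. An end of another protein-coding gene lay within 500 bp of an end of 72 of the 73 (98.6%), against 70.9% of all genes; mRpS5 alone had no such neighbour. Genes with such a neighbour were bound at 71.1% for Oregon R, 33.8% for fkh-Gal4 and 45.8% for sage-Gal4. Among genes with a neighbour that were also no longer than 2000 bp, as 70 of the 73 are, the shares were 59.7%, 24.6% and 33.9%. The mitochondrial ribosomal protein genes stood above both backgrounds in each list, at 1.37, 1.38 and 1.47 times the former and 1.63, 1.89 and 1.98 times the latter.

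Most of the members' peaks were also near another gene. The highest summit near a member had at least 1 other protein-coding gene end in its window for 70 of 71 genes with Oregon R, 33 of 34 with fkh-Gal4 and 48 of 49 with sage-Gal4. The same count over all bound genes was not made, so these counts are not read as a trait of the members. No 2 members shared their highest peak. In the Oregon R list the member's own end was the nearest of all gene ends to that summit for 37 of 71 genes (52.1%), against 61.7% over all bound genes. In the driver lists this held for 11 of 34 (32.4%, against 59.3%) and 17 of 49 (34.7%, against 60.3%). The summit nearest to each bound member lay at a median of 82 bp from its end for Oregon R, 262 bp for fkh-Gal4 and 179 bp for sage-Gal4, and the medians over all bound genes were 117, 196 and 166 bp. In the median, the nearest Oregon R summits thus stood closer to the bound members than driver summits did. The medians are over the 71, 34 and 49 members bound in each list, not over the same genes. The Oregon R list is also the longest, which can shorten such distances, and the part of list length was not tested.

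In the driver lists the excess over all genes depended on the rule for giving a peak to a gene. When each summit was given only to the gene with the nearest end, 14 members were bound in the fkh-Gal4 list (19.2%, against 19.4% of all genes) and 23 with sage-Gal4 (31.5%, against 27.3%). Under this rule the shares of short genes with a neighbour were 13.7% and 18.2%. In the Oregon R list 45 members were bound under it (61.6%, against 45.1% of all genes and 37.5% of short genes with a neighbour). Counting any peak that touched the gene itself gave 71 members in the Oregon R list (97.3%, against 58.6%), 16 for fkh-Gal4 (21.9%, against 24.7%) and 29 for sage-Gal4 (39.7%, against 31.9%). This rule favours long genes. The shares of short genes with a neighbour under it were 54.2%, 16.7% and 21.3%, below those of the members in each list.

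It depended on the strength of the peaks as well. With peaks of −log10 q of at least 10 only, 49 members were bound in the Oregon R list (67.1%, against 42.8% of all genes), but 5 for fkh-Gal4 (6.85%, against 7.03%) and 8 for sage-Gal4 (11.0%, against 10.2%). Among the 1000 top peaks by fold, 3 members were bound in the Oregon R list (4.11%, against 6.95%), 5 for fkh-Gal4 (6.85%, against 6.23%) and 4 for sage-Gal4 (5.48%, against 6.17%). The shares of short genes with a neighbour were 38.7%, 6.20% and 7.47% at the q limit and 4.77%, 5.42% and 4.37% among the top peaks. Members stood above this background in both driver lists, on counts of 4 to 8 genes, and below it among the top Oregon R peaks. The 3 of the Oregon R list were mRpL14, mRpL16 and mRpL30. The driver lists gave mRpL17, mRpS10, mRpS26 and mRpS35 in both and mRpS14 in the fkh-Gal4 list.

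**Figure D2:**
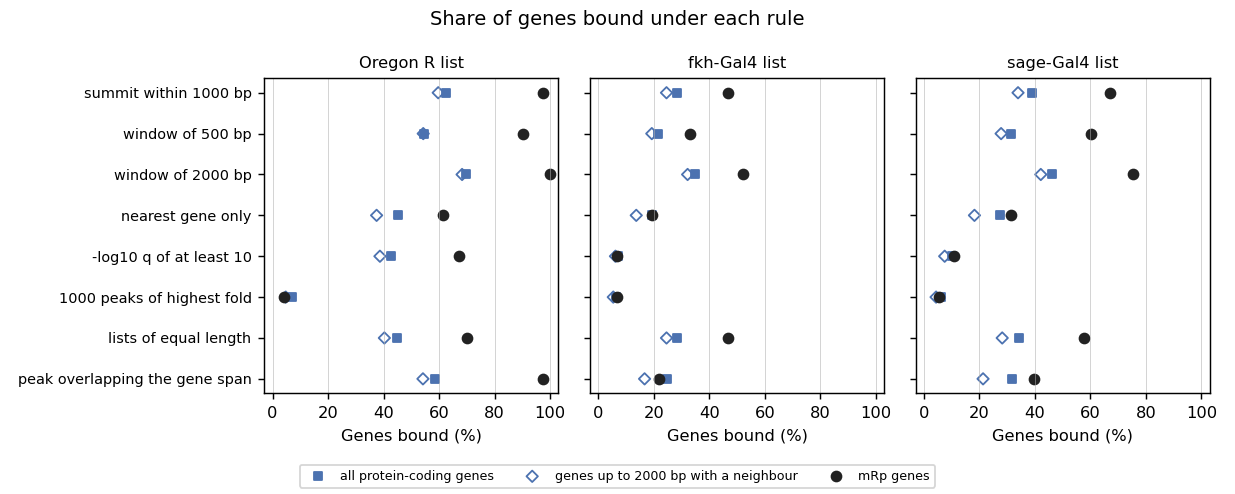
Share of genes bound (percent, x axis) in each of the 3 lists under 8 rules (y axis) for giving peaks to genes or choosing peaks; each list is 1 library. Black circles, the mitochondrial ribosomal protein (mRp) genes, lie right of both backgrounds in the Oregon R list under every rule but the 1000 strongest peaks; in the fkh-Gal4 list they meet the share of all genes with the nearest gene only, at 19.2% and 19.4%.

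In each list the highest peaks near members had a lower median rank than those near all bound genes. Their median percentile was 63.9 in the Oregon R list (range 10.3 to 97.7), 44.7 for fkh-Gal4 (1.33 to 93.9) and 47.5 for sage-Gal4 (2.97 to 99.1). Over the distinct highest peaks near all bound protein-coding genes, each peak taken once, the medians were 68.2, 60.0 and 58.9. Below the middle of the list were 15 of 71 members' peaks for Oregon R (21.1%, against 26.4% of the peaks near all bound genes), 18 of 34 for fkh-Gal4 (52.9%, against 40.3%) and 25 of 49 for sage-Gal4 (51.0%, against 40.2%). Members thus stood mostly above the middle of the Oregon R list and about evenly around it in the driver lists. At percentile 90 or above stood 7 of 71 members' peaks for Oregon R (9.86%, against 15.2%), 1 of 34 for fkh-Gal4 (2.94%, against 13.7%) and 3 of 49 for sage-Gal4 (6.12%, against 12.4%). Median folds were 2.06, 1.71 and 1.83 near members and 2.12, 1.81 and 1.94 near all bound genes.

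**Figure D3:**
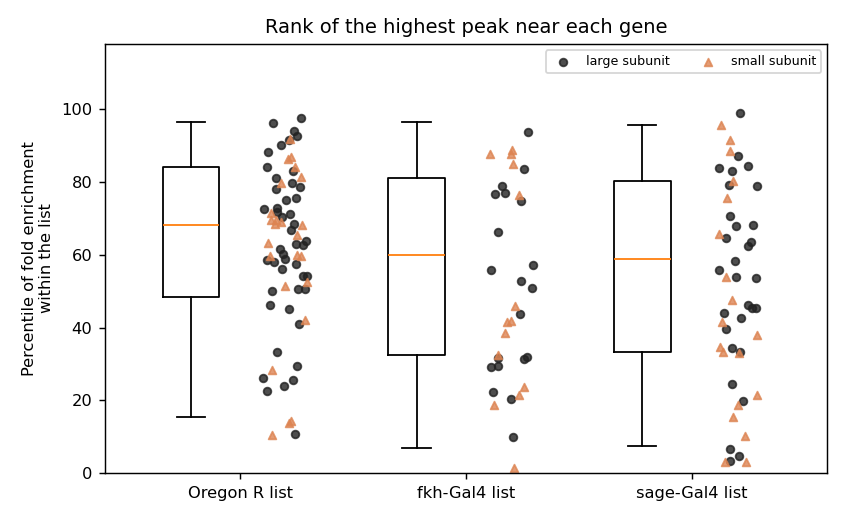
Percentile of fold enrichment within each list (y axis) for the highest peak near each bound mitochondrial ribosomal protein gene, with circles for the large and triangles for the small subunit. Boxes give the quartiles, and whiskers the 5th and 95th percentiles, of the highest peaks near all bound protein-coding genes. The points of the driver lists have medians of 44.7 and 47.5, below the box medians of 60.0 and 58.9.

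Large and small subunit genes were not told apart by their shares, and the intervals were wide. In the Oregon R list all 47 large subunit genes were bound (interval 92.5 to 100%) and 24 of 26 small subunit genes (92.3%, 74.9 to 99.1%), the exceptions being mRpS2 and mRpS16. In the fkh-Gal4 list it was 20 of 47 (42.6%, 28.3 to 57.8%) against 14 of 26 (53.8%, 33.4 to 73.4%). In the sage-Gal4 list it was 30 of 47 (63.8%, 48.5 to 77.3%) against 19 of 26 (73.1%, 52.2 to 88.4%). The intervals for large minus small were −1.69 to 24.1, −33.0 to 11.9 and −28.7 to 13.5 percentage points for Oregon R, fkh-Gal4 and sage-Gal4, by Newcombe's method from Wilson intervals, so each includes no difference and also differences of more than 10 points. Median percentiles for large and small subunit genes were 62.9 and 66.8 in the Oregon R list, 51.8 and 41.6 with fkh-Gal4, and 54.9 and 37.9 with sage-Gal4.

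The mitochondrial ribosome keeps a core of proteins named after their bacterial counterparts (large subunit numbers up to 36, small subunit numbers up to 21) and has added proteins found in mitochondria and not in bacteria. Here genes are termed bacterial-type or mitochondrion-specific by these numbers alone, and the homology of each protein was not checked. Of the 42 bacterial-type genes, 40 were bound for Oregon R, 21 for fkh-Gal4 and 27 for sage-Gal4 (64.3%). Of the 31 mitochondrion-specific genes it was 31, 13 (41.9%) and 22 (71.0%). All 3 lists held 17 of 42 (40.5%) and 13 of 31 (41.9%), so neither kind led in every list.

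The highest ranked member over all 3 lists, by its lowest percentile, was mRpL17 on 3L from 264779 to 265932, a large subunit protein of the bacterial type. Its peaks had folds of 2.37 for Oregon R, 2.42 for fkh-Gal4 and 3.04 for sage-Gal4, at ranks 2656, 393 and 68. These summits lay 903, 846 and 867 bp from mRpL17, and nearest to an end of Tudor-SN, which encodes an RNA-binding nuclease, at 504, 447 and 468 bp. Lower peaks had summits inside mRpL17, with a fold of 1.57 in the Oregon R list and 1.63 in the sage-Gal4 list. The Oregon R peak also overlapped CG34263, which lies within mRpL17, and its summit was nearer to an end of CG34263.

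At mRpS14 on X, from 19479382 to 19480238, the gene's own end was the nearest to the highest summit in each list. It encodes a protein of the small subunit of the bacterial type. The folds were 2.68, 2.22 and 2.22 in the Oregon R, fkh-Gal4 and sage-Gal4 lists (percentiles 91.9, 87.7 and 80.2), with summits 37, 17 and 80 bp from its end. No other gene end was nearer to them, but Naa15-16, a subunit of an N-terminal acetyltransferase, overlaps that end. The summits of all lists lay inside Naa15-16, and the fkh-Gal4 summit lay outside mRpS14. Position alone therefore does not give these peaks to mRpS14.

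Other high peaks stood in the gap to a neighbour or inside it. For mRpS35, a mitochondrion-specific protein on 3L from 2780899 to 2782105, the folds were 2.15, 2.26 and 2.52 in the Oregon R, fkh-Gal4 and sage-Gal4 lists (percentiles 69.6, 88.9 and 91.7), and the nearest gene end was that of Pgant6, at 43, 72 and 165 bp. Pgant6 is a transferase that begins mucin-type O-glycans in the Golgi. For mRpS26 on 3L, from 18106579 to 18107499, the folds were 2.14, 2.23 and 2.70 (percentiles 68.9, 87.8 and 95.8), at summits 502 to 562 bp away and nearest to CG13698. A second sage-Gal4 peak with a fold of 1.75 had its summit inside mRpS26.

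At mRpS10 on 3R, from 15229665 to 15230516, the folds were 2.08, 2.16 and 2.42 in the same order (percentiles 65.4, 85.0 and 88.6). It encodes a small subunit protein of the bacterial type. The 3 summits lay 112, 122 and 156 bp from its end, in the gap to Art3, an arginine methyltransferase gene, whose end was the nearer for the sage-Gal4 summit. The genes mRpL17, mRpS14, mRpS35, mRpS26 and mRpS10 are the 5 members among the 1000 top fkh-Gal4 peaks. Their fkh-Gal4 percentiles of 85.0 or above follow from that and are no separate result.

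**Figure D4:**
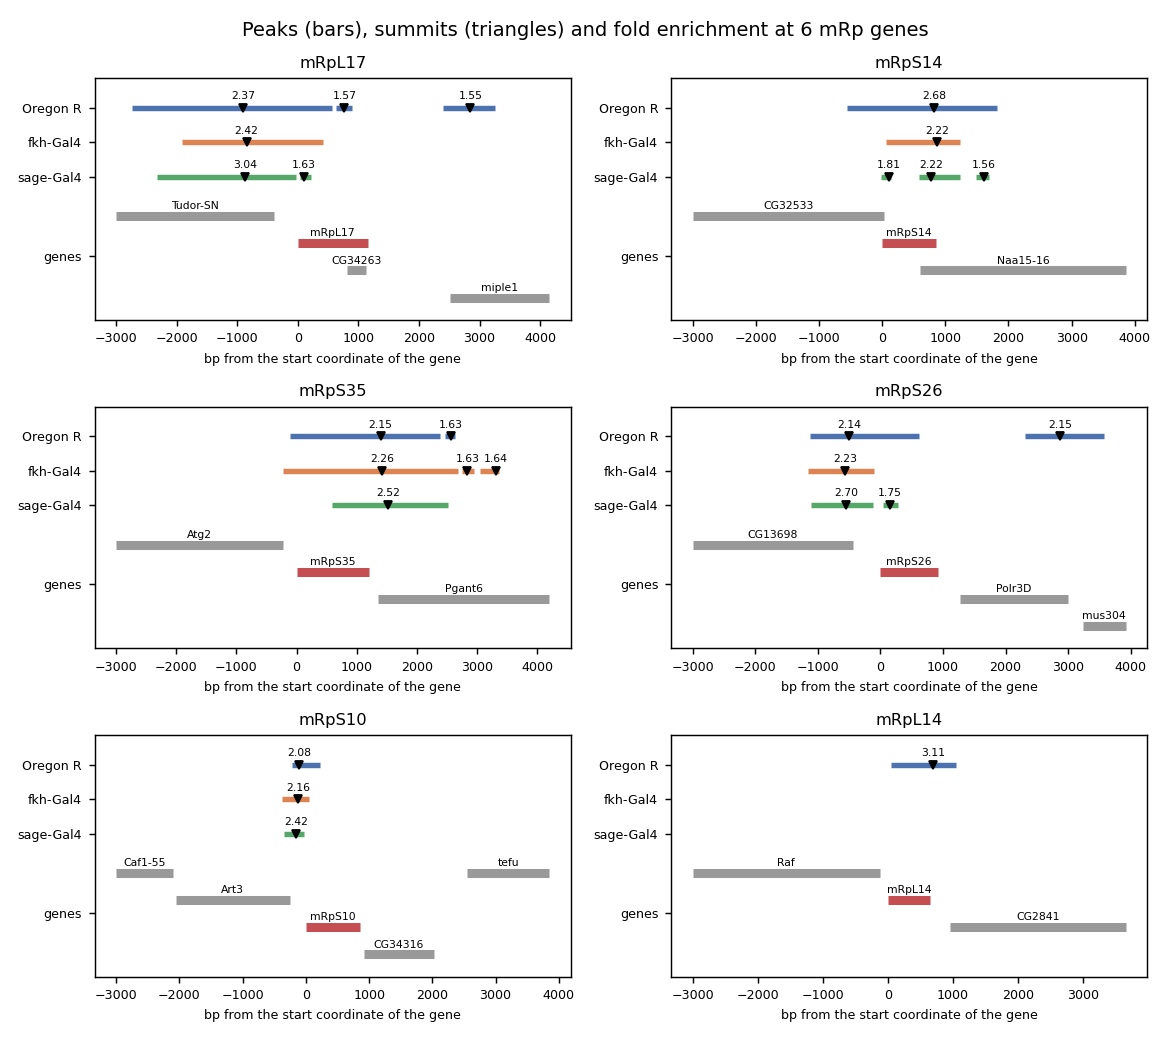
Peaks at 6 mitochondrial ribosomal protein (mRp) genes: bars are peaks in each list, triangles summits with the authors' fold beside them, red bars the named gene and grey bars neighbours, against distance in bp from the gene's start coordinate (x axis; genes are cut at the edge of the region drawn). At mRpL17 the highest summits, with folds of 2.37, 2.42 and 3.04, stand within Tudor-SN, while at mRpL14 the fold of 3.11 is in the Oregon R list alone.

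The other 5 of the 10 highest ranked members had fkh-Gal4 percentiles of 57.3 to 83.5. They were not all ranked below those above: by lowest percentile mRpL53, mRpL2 and mRpL32 (70.6, 68.2 and 66.3) stood above mRpS10 (65.4). For mRpL53, a mitochondrion-specific protein on 2R, the folds were 2.25, 2.0 and 2.07 in the Oregon R, fkh-Gal4 and sage-Gal4 lists, and CG33155 has the same start and end coordinates, so the peaks are equally near both genes. For mRpL2, a protein of the peptidyl transferase region, they stood at percentiles 72.8, 76.8 and 68.2, at summits 723 to 815 bp away and nearest to FoxK, a forkhead factor gene. For mRpL32 they were 2.25, 1.87 and 2.21, nearest to qless, which encodes an enzyme of coenzyme Q synthesis. These 3 genes stood between percentiles 66.3 and 79.2 in all lists.

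For mRpL28 the folds were 1.98, 2.12 and 2.28 in the Oregon R, fkh-Gal4 and sage-Gal4 lists, and its own end was the nearest in both driver lists, at 122 and 95 bp. The Oregon R summit lay 34 bp from mRpL28 and was nearer to another gene on that side, at 21 bp. Gmd, an enzyme of GDP-fucose synthesis, lies at the other end of mRpL28. For mRpL48, a mitochondrion-specific protein, the folds were 1.98, 1.79 and 2.37, nearest in each list to CG17660. Both ranked higher in the sage-Gal4 list, at percentiles of 83.0 and 87.1, than in the Oregon R list, at 58.5 and 57.9.

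The other 20 genes bound in all 3 lists, 12 of the large and 8 of the small subunit, had folds of 1.66 to 2.94 (median 2.12) in the Oregon R list, 1.41 to 2.03 (median 1.69) in the fkh-Gal4 list and 1.53 to 2.30 (median 1.80) in the sage-Gal4 list. They were mRpL3, mRpL16, mRpL18, mRpL22, mRpL24, mRpL34, mRpL35, mRpL41, mRpL43, mRpL44, mRpL49, mRpL55, mRpS6, mRpS17, mRpS18B, mRpS21, mRpS23, mRpS24, mRpS30 and mRpS31. Over all 30 genes the fkh-Gal4 percentile was above the Oregon R percentile for 9 (against 32.6% of the 3469 protein-coding genes in all 3 lists) and the sage-Gal4 percentile for 13 (43.3%, against 39.8%), near the shares of all genes. A pair chosen after their values were seen had high Oregon R and low driver percentiles. They are mRpL16, at percentiles of 96.2, 9.75 and 19.7 in the Oregon R, fkh-Gal4 and sage-Gal4 lists (folds 2.94, 1.51 and 1.64), and mRpL18, at 90.2, 29.1 and 6.47 (folds 2.62, 1.63 and 1.53).

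Of the 30 genes in all 3 lists, the gene's own end was the nearest to the highest summit in each list for 5, a tie included: mRpL22, mRpL41, mRpL53, mRpS14 and mRpS24. Peaks of the 3 lists within the window overlapped each other by at least 1 bp at 29 of the 30 genes, and 3 summits within 150 bp of each other were found at 14. These 3 counts were not made over all protein-coding genes in all 3 lists, so they are not read as a trait of the members. Over the 31 genes bound in both driver lists, the highest fkh-Gal4 and sage-Gal4 summits were a median of 93 bp apart and their percentiles had a Spearman rho of 0.66 (0.56 over the 3656 protein-coding genes bound in both). Between the Oregon R and sage-Gal4 lists rho was 0.07 over 47 members, against 0.31 over 5130 genes, and between Oregon R and fkh-Gal4 0.24 over 33 members, against 0.34 over 3712. These are descriptions across genes, and the driver libraries share the GFP antibody and the UAS transgene.

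**Figure D5:**
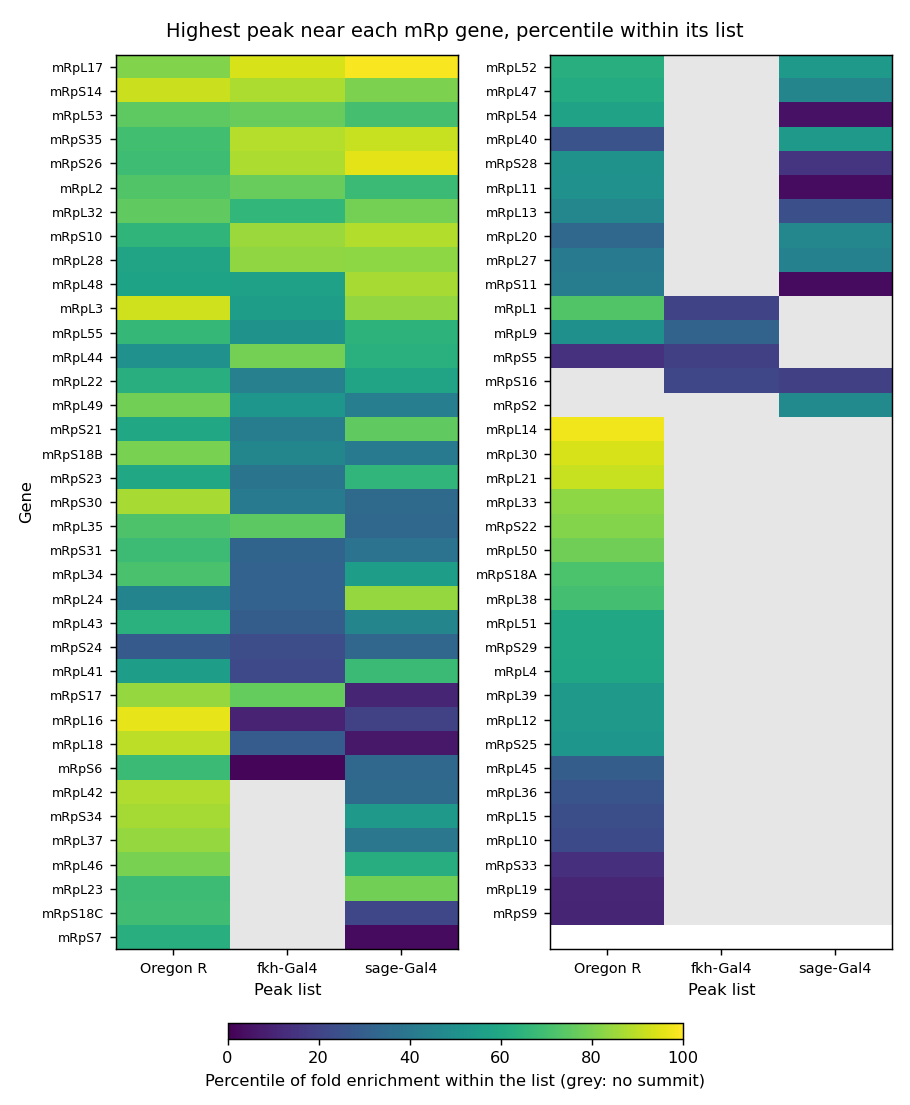
Percentile of fold enrichment of the highest peak near each of the 73 mitochondrial ribosomal protein (mRp) genes (rows) in each peak list (columns), from 0 in violet to 100 in yellow; grey marks a gene with no summit in the window. Rows are grouped by the lists that hold them; 30 genes have a value in all 3 columns, and the 21 at the lower right in the Oregon R column alone.

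A set of 21 genes, 15 of the large and 6 of the small subunit, was bound in the Oregon R list alone (28.8%, against 23.8% of all protein-coding genes). It holds the highest Oregon R rank among the members. At mRpL14 on X, from 2343997 to 2344649, the fold was 3.11 (rank 322), 39 bp from the gene's end and with no nearer gene. The nearest fkh-Gal4 and sage-Gal4 summits lay 3891 and 3853 bp away. At mRpL30 on X, from 4647871 to 4648646, the fold was 2.79 (rank 836) at 29 bp, and the nearest driver summits were 24599 bp away for fkh-Gal4 and 18332 bp for sage-Gal4. The neighbour on the side of the summit is HLH4C, a bHLH factor gene.

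Another 3 genes of this set stood at percentiles 81.3 to 91.5 of the Oregon R list. At mRpL21 the fold was 2.66, with the summit nearer to rept, a chromatin ATPase gene (137 bp), than to mRpL21 (142 bp). At mRpL33 the fold was 2.41, with the summit nearer to the phospholipase C gene norpA (72 bp) than to mRpL33 (323 bp). At mRpS22, a mitochondrion-specific protein, the fold was 2.37, and the gene's own end was the nearest, at 138 bp. The remaining 16 had Oregon R folds of 1.51 to 2.31 (median 1.92) and were mRpL4, mRpL10, mRpL12, mRpL15, mRpL19, mRpL36, mRpL38, mRpL39, mRpL45, mRpL50, mRpL51, mRpS9, mRpS18A, mRpS25, mRpS29 and mRpS33. They include mRpL10 and mRpL12, the proteins of the stalk that recruits translation factors, with folds of 1.61 and 1.93.

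The Oregon R list together with the sage-Gal4 list held 17 more genes (23.3%, against 11.9% of all genes), and the Oregon R list with the fkh-Gal4 list 3 (4.11%, against 1.74%). Of the 17, 13 had a higher percentile with Oregon R than with sage-Gal4 (76.5%, against 78.7% of the 1661 protein-coding genes in these lists only), which is near the share of all such genes. The 3 described here have the highest Oregon R percentiles of the 17. At mRpL42, beside PIG-N, an enzyme of GPI anchor synthesis, the folds were 2.55 for Oregon R (percentile 88.2) and 1.74 for sage-Gal4 (percentile 34.5). At mRpS34 they were 2.49 and 1.88 (percentiles 86.4 and 53.8), both with summits 10 bp from the gene's end. At mRpL37 they were 2.44 and 1.77 (percentiles 84.1 and 39.6). The other 14 had folds of 1.63 to 2.34 in the Oregon R list and 1.48 to 2.20 in the sage-Gal4 list: mRpL11, mRpL13, mRpL20, mRpL23, mRpL27, mRpL40, mRpL46, mRpL47, mRpL52, mRpL54, mRpS7, mRpS11, mRpS18C and mRpS28. The 3 held with fkh-Gal4 were mRpL1, mRpL9 and mRpS5, at fkh-Gal4 folds of 1.59, 1.64 and 1.58.

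Of genes bound in the Oregon R list, 46.5% of members were also in the fkh-Gal4 list (33 of 71, against 42.7% of all genes) and 66.2% in the sage-Gal4 list (47 of 71, against 59.0%). Read this way the members were near the share of all genes. Of the 34 members in the fkh-Gal4 list, 31 (91.2%, against 92.3%) were in the sage-Gal4 list, and of the 49 in the sage-Gal4 list 63.3% (against 67.4%) were in the fkh-Gal4 list.

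Only mRpS2 and mRpS16, both of the bacterial type, had no Oregon R summit in the window. At mRpS16 on 2R, beside ReepB, a gene for an ER-shaping protein, both drivers gave low peaks, with folds of 1.59 and 1.64 for fkh-Gal4 and sage-Gal4 (percentiles 21.4 and 18.8). An Oregon R peak with a fold of 1.95, from 14169706 to 14176120, covered the whole gene, but its summit lay 1372 bp away. At mRpS2 on 2L there was 1 sage-Gal4 peak with a fold of 1.83, 152 bp from the gene and 70 bp from Mon1. The nearest Oregon R summit was 1742 bp away. At the limit of the window, mRpS7 had a sage-Gal4 summit at 992 bp (fold 1.48) and was bound, while its fkh-Gal4 summit at 1026 bp (fold 1.41) was outside.

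The genes were spread over the arms, with 12 on 2L, 12 on 2R, 17 on 3L, 21 on 3R and 11 on X. All 11 X-linked members were bound in the Oregon R list, against 1394 of 2197 X-linked protein-coding genes (63.5%), with a median fold of 2.50 (range 1.91 to 3.11), against 2.02 (1.51 to 2.66) for the 60 bound members on other arms. Bound protein-coding genes at large showed a gap of the same direction, with medians of 2.45 on X and 2.11 elsewhere, so that the Oregon R folds of mRpL14, mRpL16, mRpL30, mRpL3 and mRpS14, all on X, stand against a chromosome with higher folds. The part of the X chromosome in their ranks was not tested. In the fkh-Gal4 list the medians were 1.73 for the 6 bound X-linked members and 1.71 for the 28 others, against 1.90 and 1.81 over all bound genes. In the sage-Gal4 list they were 1.86 for 6 and 1.83 for 43, against 2.07 and 1.92.

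Other genes of mitochondrial gene expression were looked at through short lists, to be read against 62.4%, 28.4% and 38.9% of all protein-coding genes bound for Oregon R, fkh-Gal4 and sage-Gal4. The small subunit genes with other symbols, tko and bonsai, were both bound in the Oregon R list, with folds of 2.73 and 1.79, and in neither driver list. Of 9 mitochondrial translation factor genes, 9 were bound for Oregon R, 1 for fkh-Gal4 and 3 for sage-Gal4; mEFTu1, an elongation factor, had folds of 2.09, 2.26 and 2.12, and mEFTs had 2.80 in the Oregon R list and 1.64 in the sage-Gal4 list. Of 11 genes of mitochondrial DNA maintenance and transcription the counts were 11, 5 and 7, led by TFAM, which packages mitochondrial DNA (folds 2.60, 2.17 and 1.96), and PolrMT, the mitochondrial RNA polymerase (2.41, 1.76 and 1.96). Of 15 mitochondrial aminoacyl-tRNA synthetase genes they were 13, 4 (26.7%) and 5 (33.3%), with ArgRS-m in all 3 lists (2.93, 1.76 and 1.97) and MetRS-m in the Oregon R list alone (2.82). Of 11 import genes they were 9, 3 (27.3%) and 6 (54.5%), led by Tim8 (2.23, 1.68 and 2.11) and Tom70 (1.72, 1.62 and 1.69).

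Beside lists for the cytosolic ribosome and the respiratory chain, taken as the symbol patterns made them, the mitochondrial ribosome had the highest Oregon R share. In the driver lists its share lay between theirs. Genes matching the symbol pattern of cytosolic ribosomal proteins were bound at 83 of 88 (94.3%) for Oregon R, 54 (61.4%) for fkh-Gal4 and 79 (89.8%) for sage-Gal4, with median percentiles of 69.4, 63.0 and 67.2 and RpS28b (folds 3.06, 3.09 and 3.07) and RpS19a (2.93, 2.41 and 2.83) ranked highest. Respiratory chain genes were bound at 69 of 87 (79.3%), 28 (32.2%) and 35 (40.2%), with median percentiles of 66.0, 49.7 and 54.8, led by ATPsyngamma (2.78, 2.18 and 2.68) and SdhBL (3.01, 2.09 and 2.24). The corresponding median percentiles of the mitochondrial ribosomal protein genes, 63.9, 44.7 and 47.5, were below those of both groups. The respiratory chain pattern also takes in genes whose symbols end in L or in L and a number. All of its genes without an Oregon R summit were of this kind, such as SdhAL, ND-24L and ND-51L2, except ND-AGGG. Its lower Oregon R share therefore rests almost wholly on such genes. Shares without them were not computed, so the order of shares holds only for the lists as made and is no statement about the respiratory chain itself. The differences between gene groups were not tested. A neighbour within 500 bp was present for 66 of 88 and 66 of 87 of these genes, against 72 of 73 mitochondrial ribosomal protein genes.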

How the data were processed

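The submitters' processing notes name BWA, build dm6 and MACS2 2.1.0.20140616, without settings. The deposited narrowPeak lists, 1 for each of the 3 immunoprecipitated libraries, hold per peak an integer score, which was not used, a fold enrichment (a ratio over local background), a −log10 p and a −log10 q, all by the authors' caller, and the summit offset in bp (other). The lowest deposited −log10 q was 1.30 to 1.31.

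Genes came from RefSeq release 6, the assembly of dm6, without strand or sequence, so starts were not told from ends and neither the planned motif search nor a rule on gene starts was run. Summits on the chromosome arms were given to all genes with an end within 1000 bp. The highest peak by fold stands for a gene. Members described singly were the 10 of highest lowest percentile among those in all 3 lists, the 8 of highest percentile among those in 1 or 2 lists, and those in both driver lists without Oregon R; any other is marked. From each other list the best ranked were named. Symbols matched the table or a synonym; 2 translation factor and 4 import symbols did not match, and 1 import symbol matched UQCR-C1. The members and lists were chosen with earlier results of these data known. Gene assignment was tested on simulated data with planted summits. Alternatives were other windows, assignment rules, peak thresholds and overlap rules. Tables were handled with pandas 2.3.3 and numpy 2.4.6 under Python 3.11.15, intervals came from scipy 1.17.1, and figures from matplotlib 3.10.9.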

Additional observations from a re-analysis of the deposited data

How the results depend on the processing

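With each summit given to the nearest gene only, bound members numbered 45, 14 and 23 in the Oregon R, fkh-Gal4 and sage-Gal4 lists and 6 in all 3, and the ratios to all protein-coding genes were 1.37, 0.987 and 1.16. With −log10 q of at least 10 the fkh-Gal4, sage-Gal4 and 3-list counts were 5, 8 and 4, with driver ratios of 0.975 and 1.07. With the 1000 highest peaks the counts were 3, 5, 4 and 0, and the ratios 0.591, 1.10 and 0.889. With any peak over the gene, a rule added after the data were seen, the driver and 3-list counts were 16, 29 and 13, and the ratios 1.66, 0.887 and 1.24 in the Oregon R, fkh-Gal4 and sage-Gal4 lists. A window of 500 bp gave 17 genes in all 3 lists, and Oregon R ratios were 1.65 with it and 1.44 with 2000 bp. Genes in all 3 lists numbered 8 with peaks overlapping by 50% of each and 14 with summits within 150 bp. Counts in all 3 lists under these alternatives were not set beside the share of all protein-coding genes. Among peaks near gene ends only, the Oregon R median percentile was 56.0. Lists of equal length, also added after the data were seen, moved no count or ratio beyond these limits. The large minus small subunit difference stayed within its interval under all alternatives run; in the sage-Gal4 list it was −9.25 points and 4.01 with a window of 500 bp. Ratios and differences were compared with their 95% intervals, counts with a factor of 1.5. The alternative on gene starts was not run. No paired analysis was possible because each group has 1 library. Depth is unknown, so absence from the shorter driver lists is not absence of binding.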
